A study of Mus musculus with 9 samples.

Results

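The nuclear hormone receptor family was followed across 3 zones of the embryonic mouse hypothalamus. The members were 45 listed genes matched by symbol, and all 45 were found among the 38195 gene symbols of the expression table. The list covered the steroid, thyroid, retinoid, fatty acid and orphan receptors.

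Messenger RNA was sequenced from E12.5 embryos of the outbred CD-1 strain, and the labels give neither a genotype nor a treatment. The hypothalamus was microdissected into ventricular, medial mantle and lateral mantle tissue, each measured in 3 libraries. The ventricular zone borders the ventricle and is where neural progenitors divide, and neurons settle in the mantle zones outside it. The title of the series is about Cenpj, a protein of the centrosome, and the aim given for these libraries is to find genes that mark regions. The labels do not say whether libraries stem from separate embryos, litters or pools, and p-values here speak only to the spread among libraries, which may be technical.

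Nuclear receptors are transcription factors that bind DNA through a zinc finger domain, and most bind a small lipid-soluble ligand through a second domain. Steroid receptors wait in a chaperone complex and enter the nucleus with their hormone, whereas thyroid, retinoic acid, oxysterol and fatty acid receptors sit on DNA as heterodimers with a retinoid X receptor (Rxr) and exchange corepressors for coactivators when ligand binds. Orphan receptors such as the COUP transcription factors Nr2f1 and Nr2f2, the tailless homologue Nr2e1 and the Nr4a group have no established physiological ligand or act largely through their own abundance. In the developing brain they take part in regional patterning, in keeping progenitors dividing and in timing differentiation. In the hypothalamus Nr5a1 (steroidogenic factor 1) marks and shapes the ventromedial nucleus.

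Levels were the deposited FPKM, that is fragment counts scaled by transcript length and library total, which allows levels of different genes to be compared per length. Differences between zones are on the log2(FPKM + 1) scale with their standard errors, from limma fitted to all 14004 genes that reached 1 FPKM in at least 3 of the 9 libraries. Those differences understate the change of genes with low levels. A gene passed when its Benjamini-Hochberg adjusted p, taken over all 14004 genes of a comparison, was under 0.05. Means of FPKM are given with their SD over n = 3 libraries.

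The libraries were unequal in depth. From the spacing of low FPKM values, ventricular replicate 3 held an implied 262376 fragments and medial replicate 3 held 541736, which was 24.7-fold and 11.9-fold below the median library, and the other 7 held 4423906 to 8820010. A single fragment on a 2 kb transcript was worth 1.91 FPKM in the first, 0.923 in the second and 0.0567 to 0.113 in the rest. Of the 45 members, 25 were listed at 0 in ventricular replicate 3 and 19 in medial replicate 3, against 6 to 12 in each of the other libraries. Over all tested genes, deviations from the zone mean had a root mean square of 0.755 on the log2 scale in ventricular replicate 3, 0.552 in medial replicate 3, 0.532 in ventricular replicate 2 and 0.269 to 0.408 in the other 6.

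Few receptors were at high levels. Over the 9 libraries, 2 members averaged at least 100 FPKM, the thyroid hormone receptor alpha gene Thra and Nr2f1, and 11 averaged at least 10. Another 14 lay between 1 and 10 FPKM and 20 lay below 1. Testing was possible for 28 members. Of the 17 untested members, 14 stayed below 1 FPKM in every library, and the highest value of any of them was 4.04 FPKM, for Nr1h3 in medial replicate 3, a library where it rested on 4 implied fragments. Hnf4a, Nr1h4, Nr1i2 and Pparg were listed at 0 in all 9 libraries.

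**Figure D1:**
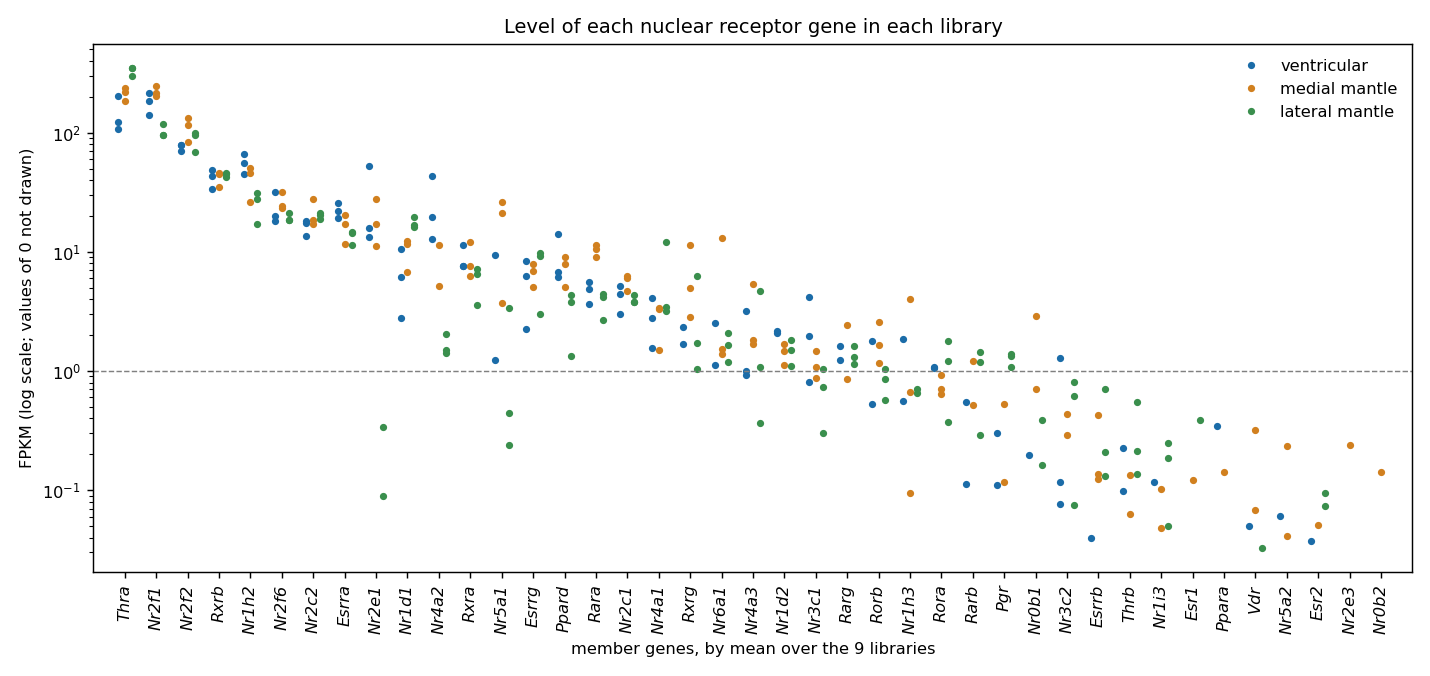
FPKM of the nuclear receptor genes in each of the 9 libraries, on a log axis, ordered by mean, with ventricular libraries in blue, medial mantle libraries in orange and lateral mantle libraries in green; values of 0 are not drawn, the 4 genes at 0 in all libraries are left out, and the dashed line marks 1 FPKM. Thra and Nr2f1 lie above all others, and the right of the plot holds the genes under 1 FPKM.

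Between the ventricular and lateral mantle zones 7 of the 28 tested members passed. The progenitor-associated receptor Nr2e1, the orphan receptor Nr4a2, Nr2f1 and the oxysterol receptor Nr1h2 (LXR beta) were higher in the ventricular zone. Thra, the haem-binding repressor Nr1d1 (Rev-erb alpha) and the progesterone receptor Pgr were lower there. Pgr reached 1 FPKM in the 3 lateral libraries alone, so it entered the tests through the zone where it was high and had to differ, and the counts of 7 and of 3 lower members include it. The zones are mixed tissue, in which fewer cells of a type and less RNA per cell cannot be told apart. The 4 higher members made up 14.3% of those tested, beside 10.7% of all genes, and the 3 lower ones made up 10.7%, beside 8.93% of all genes, so both shares lay near the background. Without overlap between libraries, 7 members (25.0%, against 25.2% of all genes) lay higher and 4 (14.3%, against 19.9%) lay lower in the ventricular zone. Pgr is among the 4, and its separation was fixed by the filter. The count of 7 was 8 without both shallow libraries, and among the fits that left out 1 library it was 2 without ventricular replicate 1, 4 without ventricular replicate 3, and 3, 2 and 3 without lateral replicates 1, 2 and 3. The count of all genes moved too, from 2750 to 3933, 1199, 2404, 959, 1021 and 1250 in the same fits.

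Comparing both mantle zones, 3 members passed, all higher medially: Nr2e1, Nr2f1 and the retinoic acid receptor Rara. That was 10.7% of the tested members, beside 3.58% of all genes called higher in the medial zone. No member was lower medially, beside 0.543% of all genes. Library sets without overlap were found for 8 members higher in the medial zone (28.6%, against 25.7% of all genes) and 3 lower (10.7%, against 14.8%). Pgr is among the 3 lower, where the filter had again fixed its separation. The higher calls made up 86.8% of all calls in this comparison under the deposited scaling and 66.6% once quantile normalized. The member count was 5 without both shallow libraries, and 1 without medial replicate 2, lateral replicate 2 or lateral replicate 3, each left out alone. The count of all genes moved from 577 to 1666, 222, 207 and 295 in the same fits.

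Between the ventricular and medial mantle zones no member passed, and neither did any other gene, so the background was 0.0% for genes higher and 0.0% for genes lower in the ventricular zone. At an unadjusted p under 0.05 limma gave 1661 of 14004 genes and 6 of 28 members. All 3 libraries of a zone lay above the other 3 for Nr4a2 in the ventricular zone (1 of 28 members, against 5.36% of all genes) and for Nr2f2, Rara and the retinoid X receptor gene Rxrg in the medial zone (3 of 28, against 9.3%). Without ventricular replicate 2 the count was 1 member, Thra, lower in the ventricular zone (adjusted p = 0.0266), and 571 of all genes.

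The median member had a log2 difference of -0.13 for ventricular minus lateral, 0.38 for medial minus lateral and -0.26 for ventricular minus medial. Over all tested genes the medians were 0.05, 0.10 and -0.05. Trimmed mean scaling moved the median of all genes to -0.06 for ventricular against lateral and to -0.04 for medial against lateral, and quantile normalization moved the latter to -0.01. Alternative fits were examined for each member difference with an unadjusted p under 0.05, and none of those differences changed sign.

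**Figure D2:**
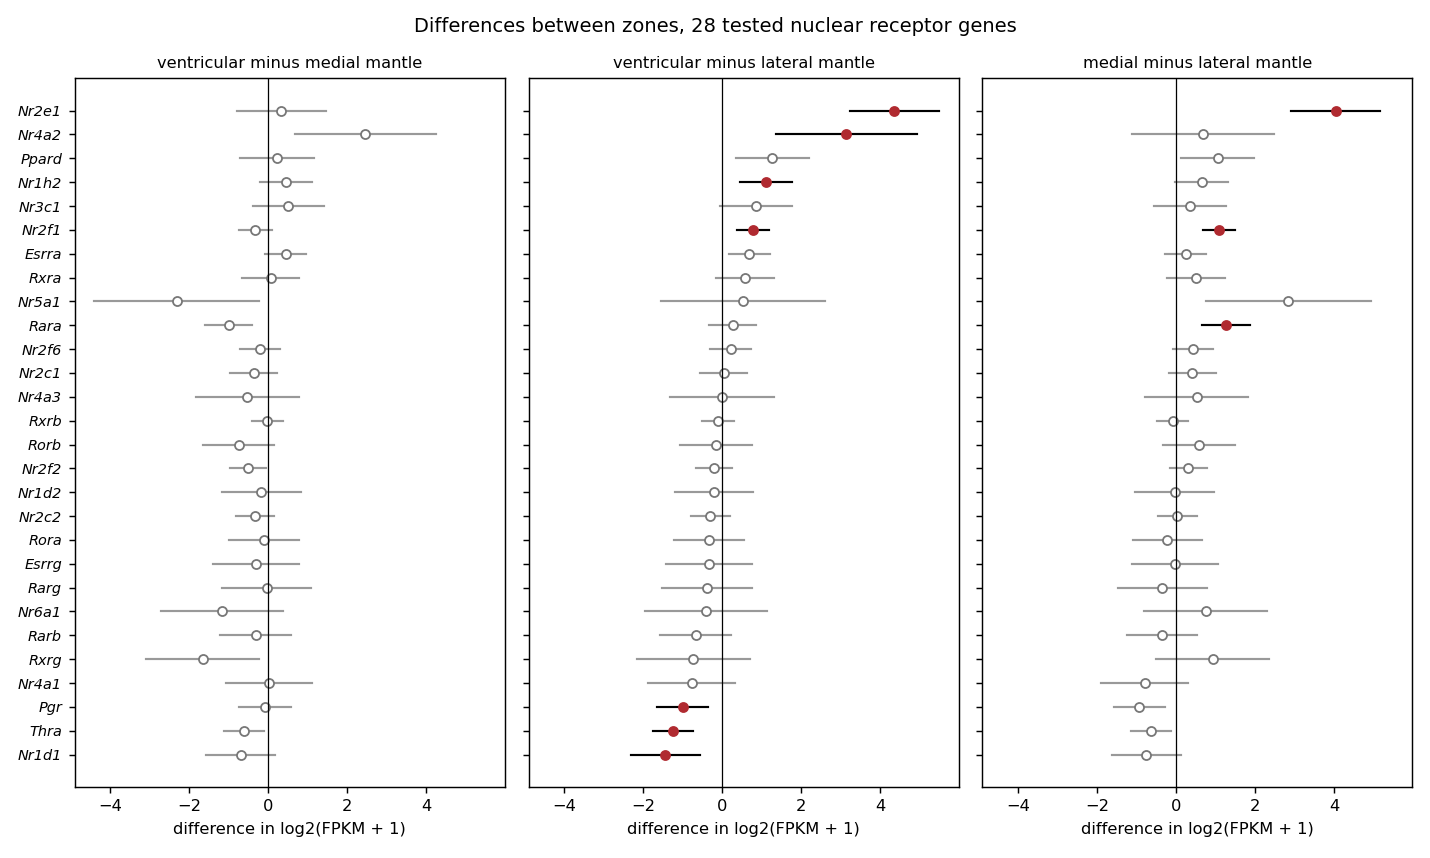
Differences in log2(FPKM + 1) between zones for the 28 tested receptor genes, with bars for the 95% confidence intervals of limma and filled red points for those past the threshold. In the ventricular against lateral comparison 7 genes are filled, in the medial against lateral comparison 3, and in the ventricular against medial comparison none.

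Nr2e1 (tailless, Tlx) is a repressor that keeps neural stem cells dividing, and lies on the minus strand of chromosome 10 from 42561963 to 42583632 (GRCm38). It stood at 15.7, 13.2 and 52.4 FPKM in ventricular replicates 1, 2 and 3. The medial libraries held 11.2, 17.2 and 28, and the lateral ones 0.0885, 0 and 0.336 FPKM. All 6 ventricular and medial libraries lay above all 3 lateral ones, in which the gene was near or at 0, and the first 2 zones overlapped. The ventricular zone exceeded the lateral zone by 4.36 ± 0.50 (adjusted p = 0.00094) and the medial zone exceeded it by 4.04 ± 0.50 (adjusted p = 0.0033). Both calls held in all 20 alternative fits. The ventricular value over the medial one, 0.33 ± 0.50, did not pass (adjusted p = 0.808). In the shallow libraries the gene rested on 45 and 50 implied fragments.

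Nr2f1 (COUP-TFI) patterns the developing forebrain and lies on the minus strand of chromosome 13 from 78188973 to 78199757. Its levels were 184, 140 and 216 FPKM in ventricular libraries, 217, 247 and 203 in medial ones and 119, 96.1 and 95.6 in lateral ones. Each lateral library was below every library of the other zones, and ventricular replicate 3 lay within the medial range. The mean fell from 222 ± 22.6 FPKM medially to 104 ± 13.3 laterally, a difference of 1.10 ± 0.18 (adjusted p = 0.0103), and the ventricular mean of 180 ± 38.1 exceeded the lateral one by 0.78 ± 0.18 (adjusted p = 0.0193). The ventricular call was lost without ventricular replicate 1 (adjusted p = 0.0603) and without lateral replicate 2 or 3 (0.0755 and 0.0706). The medial call was lost without medial replicate 2 (0.0568) and without lateral replicate 2 or 3 (0.0606 and 0.0504).

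Nr2f2 (COUP-TFII), the closest relative of Nr2f1, did not follow the same order of zones. It held 79.2, 69.8 and 79.2 FPKM in ventricular libraries, 117, 132 and 83.3 in medial ones and 100, 69.3 and 95.3 in lateral ones. The medial libraries were all above the ventricular ones, and the lateral libraries overlapped both. None of its differences passed, the widest being -0.51 ± 0.21 for ventricular against medial (adjusted p = 0.393), and for ventricular against lateral the 95% interval ran from -0.65 to 0.26. The ratio of Nr2f1 to Nr2f2 was 2.32, 2.01 and 2.72 in the ventricular, 1.86, 1.87 and 2.43 in the medial and 1.19, 1.39 and 1.0 in the lateral libraries, a description chosen after the values were seen and given without a test. Genes on the opposite strand share 2.4% of the Nr2f1 and 7.5% of the Nr2f2 exonic bases.

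Among the remaining Nr2 members no difference passed. Nr2f6, a COUP-related repressor, was 18.2, 20 and 31.5 FPKM in ventricular libraries, 23.5, 24.3 and 31.7 in medial ones and 18.5, 18.5 and 21 in lateral ones. Medial libraries of Nr2f6 were above the lateral ones, but the difference of 0.43 ± 0.23 did not pass (adjusted p = 0.325). The testicular receptor gene Nr2c2 (TR4) was 17.3, 18.1 and 13.6 FPKM in ventricular libraries, 18.5, 17.2 and 27.7 in medial ones and 20.5, 21.2 and 18.7 in lateral ones. Its lateral libraries were above the ventricular ones by 0.29 ± 0.22 (ventricular minus lateral -0.29, adjusted p = 0.361). Opposite-strand genes share exonic bases with both, Ocel1 over 54.4% of the Nr2f6 exons and Mrps25 over 30.7% of those of Nr2c2, and reads of the pairs cannot be told apart without strand. Nr2c1 ranged from 3.01 to 6.21 FPKM over the 9 libraries. The photoreceptor gene Nr2e3 was listed above 0 in medial replicate 2 alone, at 0.241 FPKM, and Hnf4a, a liver and gut regulator, in none.

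Summed over its 8 members, this Nr2 and Hnf4a group held 327 ± 65.0 FPKM ventricularly, 405 ± 34.5 medially and 235 ± 26.5 laterally. Of the 6 tested, 2 were higher in the ventricular and 2 in the medial zone against the lateral zone, Nr2e1 and Nr2f1 in each case, beside 10.7% and 3.58% of all genes.

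Nr4a2 (Nurr1) is an orphan receptor best known for the specification of midbrain dopamine neurons. Its upstream window is printed as the sequence context of the Nr4a gene that passed: the 250 bases before the RefSeq start at chr2:57124004-57124253 on the minus strand of GRCm38.p6, which overlap no annotated exon, with a TATA box motif (TATAAA, read on the opposite strand, at position -164 from the start) in capitals.
Nr4a2: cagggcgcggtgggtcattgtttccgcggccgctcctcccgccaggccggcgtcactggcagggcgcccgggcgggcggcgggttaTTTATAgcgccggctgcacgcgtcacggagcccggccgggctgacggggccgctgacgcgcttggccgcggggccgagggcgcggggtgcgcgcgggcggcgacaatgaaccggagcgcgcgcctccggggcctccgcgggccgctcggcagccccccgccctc
The window was 80.0% G and C. Levels were 19.7, 12.9 and 43.3 FPKM in ventricular libraries, 5.17, 11.4 and 0 in medial ones and 1.42, 1.5 and 2.04 in lateral ones. Every ventricular library was above every mantle library, and the medial libraries spread around the lateral ones. The ventricular mean of 25.3 ± 16.0 FPKM exceeded the lateral mean of 1.65 ± 0.338 by 3.15 ± 0.80 (adjusted p = 0.0252), and the difference from the medial zone, 2.46 ± 0.80, did not pass (adjusted p = 0.393). The value listed at 0 in medial replicate 3 came from a library where 1 fragment of this gene was worth 0.517 FPKM, and the 43.3 FPKM in ventricular replicate 3 came from 41 implied fragments. The call against the lateral zone was lost without ventricular replicate 1 or 3 (adjusted p = 0.0661 and 0.0621) and without lateral replicate 1, 2 or 3 (0.0831, 0.0808 and 0.0644), with a pseudocount of 0.1 (0.118) and with no filter on low values (0.0573).

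The other Nr4a genes, which respond rapidly to cell activation, differed in pattern. Nr4a1 (Nur77) was between 1.51 and 4.12 FPKM in 8 libraries and 12.1 FPKM in lateral replicate 2. The summed level of 10 immediate early genes was 316 FPKM in that library and 23.9 to 158 in the others, with Fos at 108 FPKM there and at most 36.5 elsewhere, and their part in the Nr4a1 value was not tested. Nr4a3 ranged from 0.364 to 5.39 FPKM. Neither gene passed in any comparison.

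**Figure D3:**
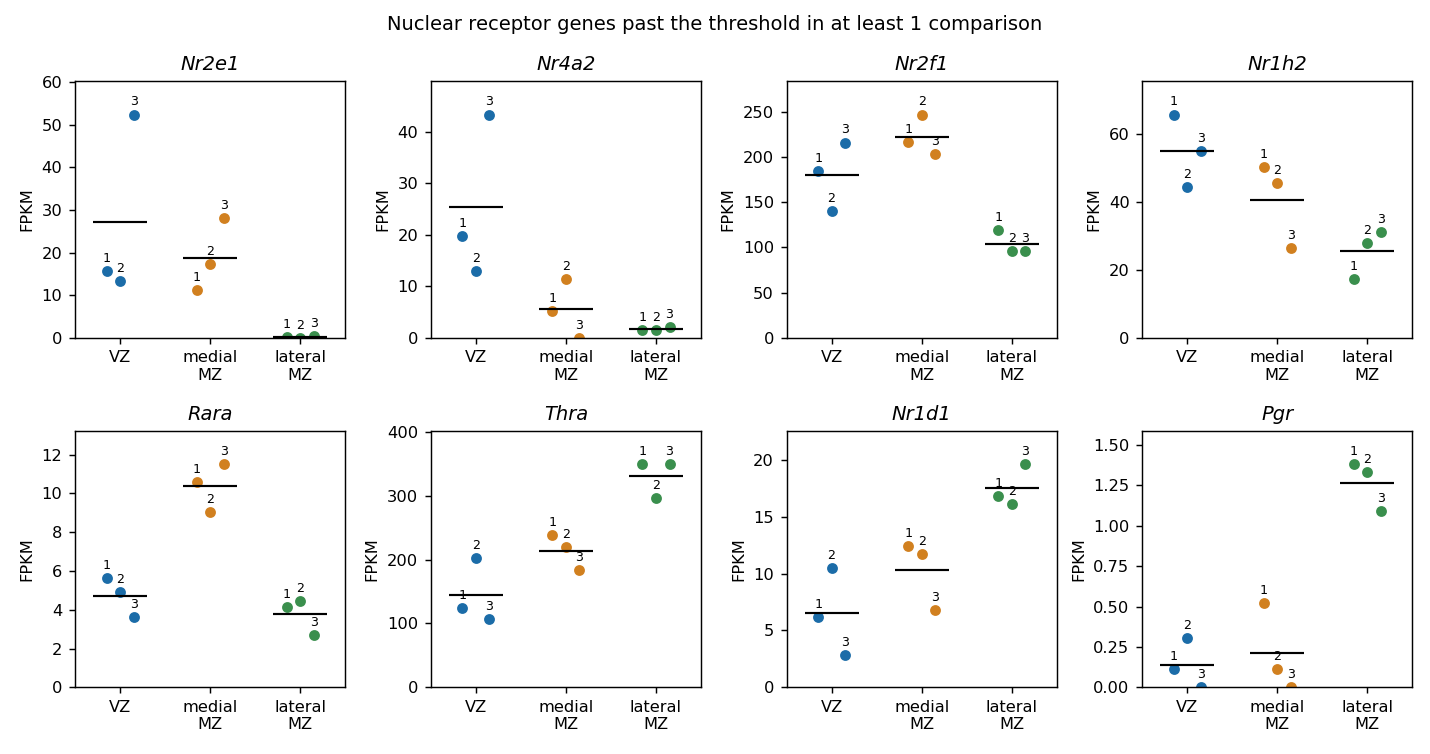
FPKM of the 8 receptor genes that passed in at least 1 comparison, by library, with replicate numbers beside the points and horizontal lines at the zone means; VZ is the ventricular zone, MZ a mantle zone, and each panel has its own axis from 0. Nr2e1 is near 0 in the lateral zone, Rara is highest in the medial zone, and Thra, Nr1d1 and Pgr are highest in the lateral zone.

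Nr1h2 (LXR beta) senses oxysterols and drives cholesterol efflux and lipid synthesis genes, and lies on the minus strand of chromosome 7 from 44549616 to 44553951. Ventricular libraries held 65.9, 44.6 and 55.1 FPKM, medial libraries 50.3, 45.7 and 26.4 and lateral libraries 17.2, 28 and 31.3. The ventricular and lateral libraries did not overlap, and medial replicate 3 fell among the lateral values. The ventricular mean was 2.16 times the lateral one (55.2 ± 10.7 against 25.5 ± 7.39 FPKM), a difference of 1.11 ± 0.30 (adjusted p = 0.0291), and the medial difference from the lateral zone, 0.65 ± 0.30, did not pass (adjusted p = 0.25). The Nr1h2 call was lost when ventricular replicate 1 or 3 was dropped (adjusted p = 0.0923 and 0.0532) and when lateral replicate 1 or 2 was dropped (0.108 and 0.0714). It was also lost under trimmed mean scaling (0.0698) and with no filter on low values (0.0563). Within this group of fatty acid, oxysterol and bile acid receptors, Ppard (PPAR delta) was 5.02 to 14.2 FPKM in the ventricular and medial libraries and 1.34 to 4.35 in the lateral ones, without overlap. Its ventricular excess of 1.28 ± 0.42 over the lateral zone did not pass (adjusted p = 0.0582) and did without ventricular replicate 2 (0.0423). Ppara reached at most 0.342 FPKM, and Pparg and the bile acid receptor gene Nr1h4 were listed at 0 throughout.

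Genes acting with these receptors were taken from a list of 13 oxysterol and fatty acid receptor targets, of which 11 were tested. Higher levels in the ventricular than in the lateral zone passed for 3 and none was lower, and the same 3 were higher in the medial than in the lateral zone, beside 10.7% and 3.58% of all genes called higher in those comparisons. Srebf1, a regulator of fatty acid synthesis, was 37.7 ± 12.7 FPKM ventricularly, 41.3 ± 12.0 medially and 8.85 ± 1.61 laterally (differences from lateral 1.93 ± 0.29 and 2.08 ± 0.29, adjusted p = 0.00318 and 0.00543). The desaturase gene Scd2 was 226 ± 43.4, 225 ± 23.7 and 88.9 ± 5.32 FPKM (1.32 ± 0.16 and 1.33 ± 0.16, adjusted p = 0.00136 and 0.00319). Fabp7, which binds fatty acids in radial glia and is also among the progenitor markers, was 272 ± 102, 201 ± 45.7 and 11.6 ± 3.82 FPKM (4.42 ± 0.33 and 4.03 ± 0.33, adjusted p = 0.000269 and 0.000635). These 3 kept their calls in all 20 alternative fits. Fabp5, the most abundant target that did not pass, was 136 ± 21.1, 175 ± 7.54 and 166 ± 13.2 FPKM.

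The retinoic acid receptors bind all-trans retinoic acid and the retinoid X receptors are their partners. All 6 of these genes were tested and 1 passed. Rara lies on the plus strand of chromosome 11 from 98927818 to 98974942. The window before one of its RefSeq starts, chr11:98937446-98937695 of GRCm38.p6 on the plus strand, is printed as the context of the retinoid gene that passed. It overlaps no annotated exon and has a CCAAT box motif in capitals, read on the opposite strand at position -101 from the start.
Rara: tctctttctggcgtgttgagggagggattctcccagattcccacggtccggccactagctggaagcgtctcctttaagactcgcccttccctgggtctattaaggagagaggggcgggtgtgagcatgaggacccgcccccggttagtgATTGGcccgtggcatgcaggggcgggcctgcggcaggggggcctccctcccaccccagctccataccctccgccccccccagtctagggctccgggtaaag
Rara stood at 5.63, 4.90 and 3.63 FPKM in ventricular libraries, 10.6, 9.02 and 11.5 in medial ones and 4.15, 4.45 and 2.70 in lateral ones. The medial libraries were above all 6 others, and the ventricular and lateral ones overlapped. The medial mean of 10.4 ± 1.27 FPKM was 2.76 times the lateral mean of 3.77 ± 0.936, a difference of 1.27 ± 0.27 (adjusted p = 0.0302). The medial zone also exceeded the ventricular zone by 1.0 ± 0.27 (ventricular minus medial -1.0), which did not pass (adjusted p = 0.361). The call against the lateral zone was lost without medial replicate 1, 2 or 3 (adjusted p = 0.104, 0.0886 and 0.0952), without lateral replicate 1, 2 or 3 (0.101, 0.0888 and 0.122), with trimmed mean scaling (0.0572) and with no filter on low values (0.0584).

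The retinoid X receptor gene Rxrb had overlapping libraries in all zones, at 43.4, 48.2 and 33.9 FPKM in ventricular libraries, 45.2, 46.3 and 35.3 in medial ones and 42.8, 45.7 and 44.9 in lateral ones. Zone means of 41.8 ± 7.25, 42.2 ± 6.06 and 44.5 ± 1.49 FPKM differed by less than the spread between libraries. The 95% interval of its ventricular minus lateral difference ran from -0.50 to 0.30 and that of its medial minus lateral difference from -0.48 to 0.31. Rxra was 11.5, 7.54 and 7.62 FPKM in ventricular libraries, 6.26, 7.63 and 12.0 in medial ones and 6.47, 3.59 and 7.19 in lateral ones. Its ventricular libraries lay above the lateral ones, with a difference of 0.57 ± 0.33 that did not pass (adjusted p = 0.241). Rxrg was listed at 0 in ventricular replicate 3 and reached 11.3 FPKM in medial replicate 3, from 13 implied fragments. Rarb stayed between 0 and 1.44 FPKM and Rarg between 0 and 2.45, and neither passed. Top2b on the opposite strand shares 34.1% of the Rarb exonic bases. Summed over the 6 genes the level was 58.0 ± 11.1, 69.3 ± 1.24 and 59.3 ± 2.91 FPKM in the ventricular, medial and lateral zones.

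Retinoid supply and binding genes were led by the binding proteins. Of 14 listed, 5 were tested. Crabp1, which binds retinoic acid in the cytoplasm, was lower ventricularly than laterally (0.512, 0.338 and 0 FPKM against 37.5, 30.3 and 20.4; difference -4.55 ± 0.67, adjusted p = 0.00278), and held 1.51, 2.55 and 19.0 in the medial libraries. Its call held in all 20 alternative fits. Crabp2, which carries retinoic acid to its receptors, was higher in the medial than in the lateral zone at 24.5, 30.5 and 76.9 against 6.71, 4.54 and 9.96 FPKM (2.35 ± 0.52, adjusted p = 0.037). That call was lost in 10 of 20 alternative fits, among them those lacking ventricular replicate 1, any medial replicate or any lateral replicate (adjusted p from 0.0528 to 0.163). Stra6, the retinol uptake receptor, did not pass at 1.95 ± 0.840, 5.51 ± 1.07 and 4.04 ± 1.58 FPKM.

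Thra was the most abundant member. It encodes the thyroid hormone receptor alpha and also an isoform that does not bind the hormone, and gene-level values do not tell these apart. The gene lies on the plus strand of chromosome 11 from 98740638 to 98769006. Thra levels were 124, 202 and 107 FPKM in ventricular libraries, 239, 219 and 183 in medial ones and 349, 296 and 349 in lateral ones. All lateral libraries exceeded all others, and ventricular replicate 2 lay within the medial range. The ventricular mean of 145 ± 50.6 FPKM was 0.438 times the lateral mean of 331 ± 30.5, a difference of -1.24 ± 0.23 (adjusted p = 0.00706) that held in all 20 alternative fits. The medial zone lay between, at 214 ± 28.5 FPKM. Neither of its differences passed, at -0.60 ± 0.23 for ventricular minus medial and -0.64 ± 0.23 for medial minus lateral (adjusted p = 0.393 and 0.155), and without ventricular replicate 2 both did (0.0266 and 0.0414). The beta receptor gene Thrb was listed between 0 and 0.546 FPKM. Dio3, which inactivates thyroid hormone, did not pass, with means of 1.94 ± 2.35 FPKM ventricularly, 3.15 ± 2.25 medially and 3.86 ± 1.76 laterally.

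Nr1d1 (Rev-erb alpha) represses clock and metabolic genes, and lies on the minus strand of chromosome 11 from 98767932 to 98775333, so the ends of the 2 genes overlap. Its levels were 6.20, 10.5 and 2.81 FPKM in ventricular libraries, 12.4, 11.7 and 6.80 in medial ones and 16.8, 16.1 and 19.6 in lateral ones. As with Thra, every lateral library was above all others and ventricular replicate 2 was the highest of its zone. The ventricular mean of 6.49 ± 3.85 FPKM was below the lateral mean of 17.5 ± 1.89 by 1.44 ± 0.39 (ventricular minus lateral -1.44, adjusted p = 0.0306). This call was lost without ventricular replicate 1 (adjusted p = 0.0741), without lateral replicate 1, 2 or 3 (0.0921, 0.085 and 0.0985) and with only the compared zones in the fit (0.057) or no filter on low values (0.0591). In the shallow ventricular library the gene rested on 2 implied fragments.

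The Thra and Nr1d1 exons share 263 bases, from 98768157 to 98768419, or 9.67% of the 2721-base Nr1d1 transcript. The stretch that is coding in both genes is chr11:98768223-98768419, and is printed on the Thra (plus) strand from the GENCODE transcripts, since reads from it fit both genes unless strand is kept.
Thra and Nr1d1 shared coding bases: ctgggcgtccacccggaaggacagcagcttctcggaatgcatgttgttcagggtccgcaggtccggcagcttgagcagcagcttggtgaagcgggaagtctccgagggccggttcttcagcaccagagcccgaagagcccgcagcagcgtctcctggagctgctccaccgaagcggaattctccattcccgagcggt
Of the 9 annotated Thra transcripts, 2 hold shared bases. Nr1d1 stood at 4.98%, 5.18% and 2.61% of the Thra FPKM in ventricular libraries, 5.19%, 5.34% and 3.72% in medial ones and 4.81%, 5.42% and 5.62% in lateral ones. In the 7 deep libraries the ratio thus kept to 4.81% to 5.62% while Nr1d1 itself ran from 6.20 to 19.6 FPKM. If all Thra fragments came from its 2452-base transcript, spread evenly, those on the shared bases would amount to 10.4 to 33.7 FPKM of Nr1d1. That is above the Nr1d1 value in each library. A 2246-base coding transcript of Thra holds 0 shared bases, and the part of each transcript in the Thra value is not known here. The library kit's name in the labels mentions no strand marking and no source used here gives the strand setting of the counting, and the part of Thra reads in the Nr1d1 values was not tested.

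**Figure D4:**
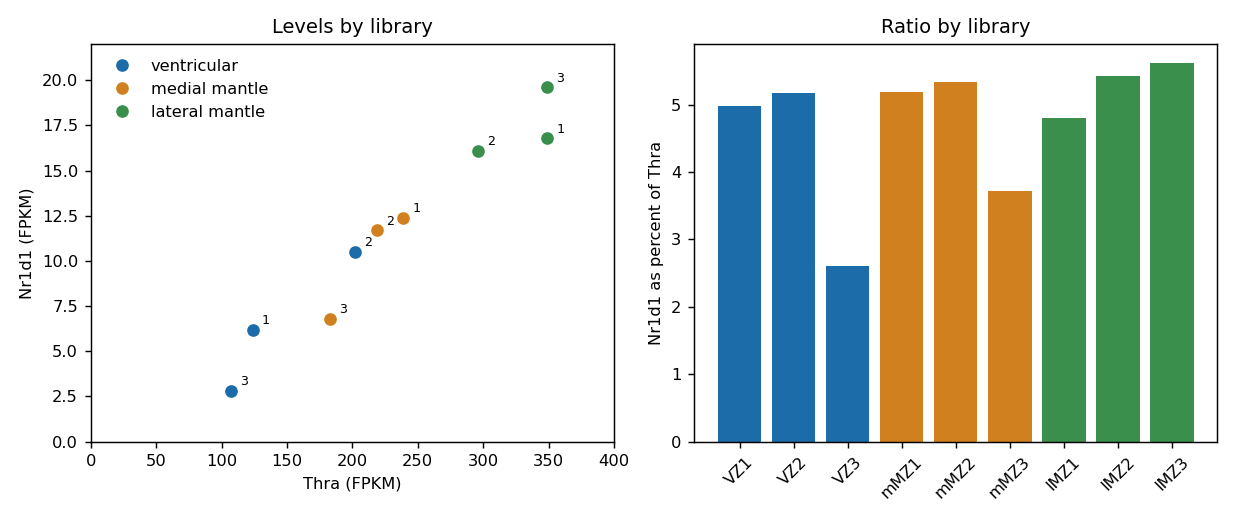
Left, FPKM of Nr1d1 against FPKM of Thra in the 9 libraries, coloured by zone and numbered by replicate; right, Nr1d1 as a percentage of Thra in each library, as bars from 0 (VZ ventricular, mMZ medial mantle, lMZ lateral mantle). The 7 deep libraries have ratios of 4.81% to 5.62%, and the shallow libraries 2.61% and 3.72%.

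The other Rev-erb and Ror receptors were low. Nr1d2 (Rev-erb beta) ranged from 0 to 2.18 FPKM, Rora from 0 to 1.78 and Rorb from 0 to 2.58, each with its 0 in ventricular replicate 3, and none passed. Among 14 circadian partner genes 12 were tested. Bhlhe41, a repressor of the clock loop, was lower ventricularly than laterally, at 0.405, 0.353 and 0 against 1.80, 1.17 and 3 FPKM (-1.23 ± 0.33, adjusted p = 0.0315). Besides the 3 lateral libraries only medial replicate 1 reached 1 FPKM, so this gene, too, entered the tests through the zone where it was high. It did not pass in 9 of 19 alternative fits, among them those without ventricular replicate 1 or 3, medial replicate 2 or lateral replicate 1, 2 or 3 (adjusted p from 0.0518 to 0.119). Tef, a clock output factor, did not pass at 15.7 ± 8, 12.8 ± 0.781 and 8.90 ± 0.622 FPKM.

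Steroid receptors were low in every zone. Pgr, on the plus strand of chromosome 9 from 8899833 to 8968611, was 0.111, 0.303 and 0 FPKM in ventricular libraries, 0.524, 0.116 and 0 in medial ones and 1.38, 1.33 and 1.09 in lateral ones. Its upstream window, chr9:8899583-8899832 on the plus strand of GRCm38.p6, is printed as the context of the steroid receptor that passed. It overlaps no annotated exon and has a TATA box motif and a CCAAT box motif in capitals, both read on the opposite strand, at positions -212 and -67 from the start.
Pgr: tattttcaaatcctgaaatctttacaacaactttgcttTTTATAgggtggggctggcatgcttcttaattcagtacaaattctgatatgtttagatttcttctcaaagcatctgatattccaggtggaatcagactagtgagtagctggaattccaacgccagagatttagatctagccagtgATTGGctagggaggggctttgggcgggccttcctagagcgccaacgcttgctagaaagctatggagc
The window was 43.6% G and C. The 3 lateral libraries of Pgr were above all others and alone brought it past the filter. The ventricular mean was below the lateral one by 1.0 ± 0.29 (ventricular minus lateral -1.0, adjusted p = 0.0404). The call was lost in 10 of 19 alternative fits, among them those without ventricular replicate 1 or 3 (adjusted p = 0.0958 and 0.069), medial replicate 1 or 2 (0.0537 and 0.0678) or lateral replicate 1, 2 or 3 (0.129, 0.124 and 0.0962).

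The glucocorticoid receptor gene Nr3c1 was 0.300 to 4.16 FPKM over the libraries and did not pass. Its highest value, in ventricular replicate 3, came from 7 implied fragments. The mineralocorticoid receptor gene Nr3c2 reached at most 1.29 FPKM, the oestrogen receptor genes Esr1 and Esr2 at most 0.385 and 0.0941. Of the 17 genes of steroid synthesis, receptor chaperones and steroid response, 12 were tested. Hsd11b2, which inactivates corticosterone, was 10.9, 8.33 and 4.27 FPKM in ventricular libraries, 22.4, 25.9 and 22.8 in medial ones and 2.39, 1.19 and 5.88 in lateral ones. Its medial libraries were above all others, and the medial excess over the lateral zone, 2.73 ± 0.43 (adjusted p = 0.00866), held in all 20 alternative fits. Sgk1, a kinase induced by corticosteroids, was lower ventricularly than laterally (3.44 ± 1.93 against 10.7 ± 4.40 FPKM; -1.45 ± 0.40, adjusted p = 0.0336). It lost the call in 9 of 20 alternative fits, among them those lacking ventricular replicate 1, one of medial replicates 1 and 2 or any lateral replicate (adjusted p from 0.0536 to 0.123). The chaperone gene Hsp90ab1 did not pass at 846 ± 139, 872 ± 29.0 and 646 ± 74.4 FPKM.

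Among the oestrogen-related receptors, which act on mitochondrial genes without binding oestrogen, Esrra was 21.9, 19.3 and 25.5 FPKM in ventricular libraries, 17.1, 20.4 and 11.7 in medial ones and 14.6, 11.4 and 14.3 in lateral ones. Its ventricular libraries were all above the lateral ones. The difference of 0.69 ± 0.23 did not pass (adjusted p = 0.0659) and did without medial replicate 3 (0.035) and without both shallow libraries (0.0329). Esrrg ranged from 2.27 to 9.77 FPKM with overlap of all zones, and Esrrb from 0 to 0.703.

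Nr5a1, the marker of the ventromedial nucleus, did not pass, and is described because of its spread, after its values were seen. It was 9.49, 1.23 and 0 FPKM in ventricular libraries, 26.3, 21.3 and 3.75 in medial ones and 0.445, 0.240 and 3.35 in lateral ones. The 3 medial libraries were above the lateral ones, by 2.85 ± 0.93 (adjusted p = 0.125), and the lowest of them was the shallow one, with 6 implied fragments. Without both shallow libraries the difference was 3.64 and passed (adjusted p = 0.0187). Nr0b1 (Dax1), a receptor relative that lacks the DNA-binding domain and works with Nr5a1, reached its highest values, 2.88 and 0.708 FPKM, in medial replicates 1 and 2. Its other libraries held at most 0.384 FPKM. Nr0b2 was above 0 in medial replicate 1 alone, at 0.141 FPKM. Nr5a2 stayed at or below 0.233 FPKM, and Nr6a1 ran from 0 to 2.54 except for 13.0 in medial replicate 3, from 45 implied fragments.

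Of 8 genes that act with Nr5a1 in the ventromedial nucleus, 7 were tested. Nkx2-2 was higher in the ventricular (20.4 ± 8.82 FPKM) and in the medial zone (52.4 ± 2.85 FPKM) than in the lateral zone (3.93 ± 1.75 FPKM), by 2.07 ± 0.36 and 3.49 ± 0.36 (adjusted p = 0.00547 and 0.00181), in all 20 alternative fits as well. The cannabinoid receptor gene Cnr1 was lower ventricularly than laterally (-0.88 ± 0.21, adjusted p = 0.02), and lost the call without ventricular replicate 1 or lateral replicate 1 or 3 (0.0661, 0.0908 and 0.0713). Nkx2-1, the hypothalamic selector gene, did not pass, at 132, 191 and 41.5 FPKM in ventricular libraries, 146, 119 and 40.2 in medial ones and 11.7, 35.9 and 30.3 in lateral ones.

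The vitamin D and xenobiotic receptors were close to absent, with at most 0.320 FPKM for Vdr and 0.249 for Nr1i3, whose exons share 74.9% of their bases with Tomm40l on the opposite strand.

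Of 12 coactivator genes 11 were tested, and the acetyltransferase gene Ep300 was higher in the ventricular than in the lateral zone (22.6 ± 4.15 against 12.8 ± 1.60 FPKM; 0.77 ± 0.21, adjusted p = 0.0325). All 12 corepressor genes were tested, and Gps2 (51.0 ± 9.65 against 30 ± 5.16 FPKM; adjusted p = 0.031) and Rcor1 (11.5 ± 2.38 against 5.37 ± 0.614 FPKM; adjusted p = 0.0184) were higher in the ventricular zone. Beside these counts of 1 of 11 and 2 of 12 stand 10.7% of all genes called higher in that comparison. Ep300, Gps2 and Rcor1 lost their calls in 8, 9 and 5 of 20 alternative fits. Each lost it without ventricular replicate 1 (adjusted p = 0.089, 0.0898 and 0.0565 for Ep300, Gps2 and Rcor1) and without lateral replicate 1, 2 or 3 (0.0505 to 0.12). Ep300 and Gps2 also lost it without ventricular replicate 3 (0.0578 and 0.062) or medial replicate 1 (0.052 and 0.0517), and Ep300 without medial replicate 2 (0.0534). Carm1, at 50.3 ± 9.11, 53.8 ± 6.95 and 46.3 ± 3.39 FPKM, and Kdm1a, at 119 ± 8.29, 128 ± 3.79 and 105 ± 5.17 FPKM, did not pass.

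RefSeq start windows were found for 42 of the 45 members, with 63 starts. In the 250 bases before a start, on either strand, the receptor half-site AGGTCA occurred in 10 of 42 members, or in 17.5% of their starts, against 14.0% of the 32851 windows of the whole table. Of the members that passed, 7 had a window, and none of these held it. CCAAT was found before 33.3% of member starts against 33.8% of all, TATAAA before 12.7% against 12.4%, CACGTG before 7.94% against 6.02% and the cAMP element TGACGTCA before 1.59% against 1.55%, the last at 1 start, that of Nr2e1. Such matches describe these windows only.

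Markers of cell types moved with several of these genes. Summed FPKM of 10 progenitor markers was 963 to 2124 in the ventricular, 943 to 1093 in the medial and 54.1 to 115 in the lateral libraries. All 10 passed as higher in both the ventricular and the medial zone than in the lateral zone, beside 10.7% and 3.58% of all genes. Of the members, Nr2e1, Nr2f1 and Ppard also had all ventricular and medial libraries above the lateral ones, whereas Nr4a2 and Nr1h2 overlapped between the medial and lateral zones. Of the accompanying genes described above, those with that separation were Srebf1, Scd2, Ep300, Rcor1, Kdm1a, Tef, Hsp90ab1, Nkx2-1 and Nkx2-2, besides the marker Fabp7. Other genes of the accompanying lists had it too and were not counted. Over all genes, 25.2% lay above the lateral libraries in the ventricular zone and 25.7% in the medial zone. The share with both was not computed. The sum of 9 neuron markers was 504 to 1074, 1056 to 1201 and 1457 to 1713, with 7 of 9 lower ventricularly than laterally, beside 8.93% of all genes. Thra and Nr1d1 were highest in the same lateral libraries. Ventricular replicate 2, highest in both genes for its zone, was also the highest of its zone in neuron markers, at 1074. The Nr1d1 level kept to 4.81% to 5.62% of that of Thra in the deep libraries, and the part of Thra reads in it was not tested. Pgr was highest in the lateral libraries too, but the filter had fixed that. The part of cell composition in the receptor differences was not tested.

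**Figure D5:**
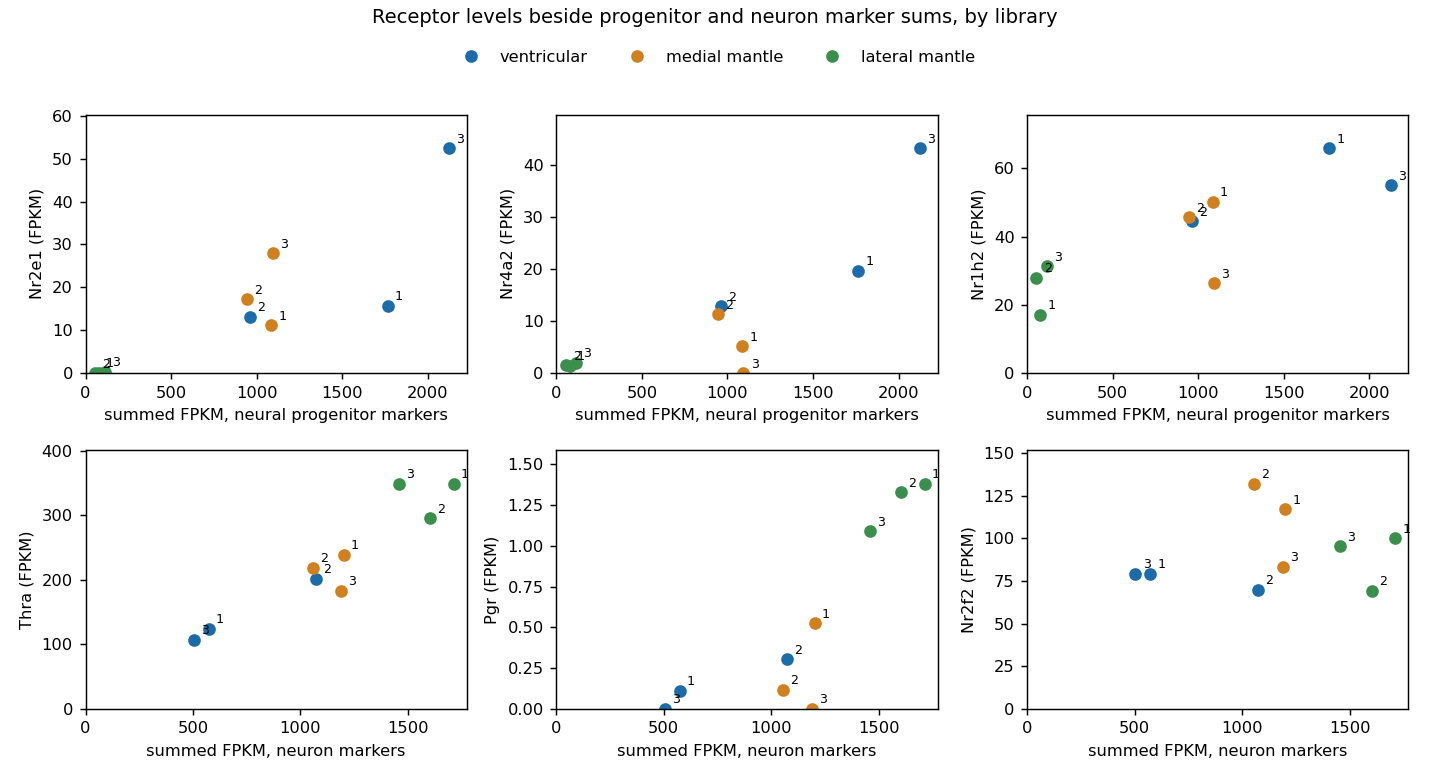
FPKM of 6 receptor genes against the summed FPKM of 10 progenitor markers (Nr2e1, Nr4a2, Nr1h2) or 9 neuron markers (Thra, Pgr, Nr2f2) in each library, coloured by zone and numbered by replicate. The lateral libraries hold at most 115 FPKM of progenitor markers and at least 1457 of neuron markers, and Nr2f2 overlaps between the lateral and the other zones. Pgr entered the tests through the lateral libraries alone, so its separation there was fixed by the filter.

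Some other cell types also differed. Erythroid markers summed to 1893 to 2046 FPKM in ventricular libraries, 1344 to 2452 in medial ones and 224 to 541 in lateral ones. Of the 6 tested, 5 were higher in each of the first 2 zones than in the lateral zone, beside 10.7% and 3.58% of all genes. Microglia and macrophage markers summed to 5.31 to 16.5, 10.3 to 20.8 and 26.2 to 37.6 FPKM, with 2 of 5 tested genes lower ventricularly than laterally, beside 8.93% of all genes. The endothelium sum was 10.9 to 61.8, 26.1 to 74.0 and 18.4 to 52.7 FPKM, and that of meninges and fibroblasts 1.74 to 8.60 over all libraries, with no gene of either past the threshold. Choroid plexus markers summed to at most 5.44 FPKM. The 1 tested, Folr1, was higher ventricularly than laterally, and was at 1 FPKM or more in the 3 ventricular libraries alone, which had brought it into the tests. Of these lists, the erythroid and the microglia and macrophage ones run along the same contrasts as Nr2e1, Nr1h2 and Thra. The part of any listed cell type in those differences was not tested.

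Regional markers were checked against the labelled tissue. The 8 hypothalamic markers summed to 131 to 329 FPKM in ventricular libraries, 401 to 497 in medial ones and 177 to 559 in lateral ones. Against the lateral zone, 2 of the 8 passed as higher and 1 as lower ventricularly, and 2 passed as higher and 0 as lower medially. Of all genes, 10.7% passed as higher and 8.93% as lower ventricularly, and 3.58% and 0.543% did so medially. Rax, among the higher markers, was present in the 6 ventricular and medial libraries (3.46 to 14.3 FPKM) and listed at 0 in all 3 lateral ones. Otp was the lower marker, with means of 70.6 ± 28.7 FPKM ventricularly, 262 ± 96.5 medially and 325 ± 185 laterally (ventricular minus lateral -2.04, adjusted p = 0.0248). Telencephalic markers summed to 10.6 to 91.5 FPKM over the libraries, and those of thalamus and prethalamus to 56.0 to 154.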

How the data were processed

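RNA was measured in 9 libraries, and samples were grouped by the zone in the labels. Slices were microdissected, and messenger RNA libraries were read as 100 bp pairs, per the labels' protocols. The authors deposited FPKM values; Bowtie2 2.1.0 and mm10 are named per the submitters' processing notes, and what program made the FPKM is not stated in the sources used. Of 38370 rows, 42 identical and 133 repeated-symbol rows were removed (highest mean kept), leaving 38195 symbols. limma 3.58.1 in R 4.3.3, with an intensity trend, fitted 1 mean per zone to log2(FPKM + 1) in all 9 libraries, for genes with 1 FPKM in at least 3 libraries. Tests were two-sided. The fit was checked on simulated data with the same spread in every library, which did not model the shallow libraries. Depth was inferred from steps in low FPKM of genes with 1 transcript, where 67.5% to 73.6% of values lay within 0.1 of a whole step, so implied fragments are approximate. Tubb3 and Epb42 of the marker lists were not analysed here. Gene coordinates and exons are of GENCODE M21, start windows of RefSeq. Values by library are given for members that passed and for the 6 most abundant that did not. From each accompanying list up to 3 genes that passed and 1 that did not are described, by library, zone mean or difference. Alternatives changed the pseudocount, filter, scaling, trend, array weights, block or zones fitted, or dropped a library. The members and lists were chosen with earlier results of these data known. Some genes of the accompanying lists, and the list results that need them, are not reported here.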

Additional observations from a re-analysis of the deposited data

How the results depend on the processing

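With array weights, limma called 2761, 6800 and 3700 genes for ventricular against medial, ventricular against lateral and medial against lateral, among them 5, 13 and 12 members, where the counts given were 0, 2750 and 577 genes and 0, 7 and 3 members. Leaving out each library in turn gave 0 to 571, 959 to 3958 and 207 to 1760 genes, and 0 to 1, 2 to 9 and 1 to 4 members. Members without overlap between libraries numbered 4 to 11 for ventricular against medial and 11 to 17 for medial against lateral, where 4 and 11 were given. The most came without ventricular replicate 2 (39.3% of members, 33.4% of all genes) and without lateral replicate 3 (60.7% and 48.4%), against 14.3% and 14.7%, and 39.3% and 40.4%, with all libraries, since fewer libraries separate more often. For ventricular against medial, 4 genes were called with a mean of at least 5 FPKM, 9 after quantile normalization and 1 with trimmed mean scaling. No filter on low values left 4 members for ventricular against lateral. With only the compared zones in the fit, 1684 genes were called for ventricular against lateral, and 2027 genes with 5 members for medial against lateral. Removing both shallow libraries, an alternative added after the depths were seen, gave 13 members without overlap for ventricular against medial (46.4%, beside 43.2% of all genes), and 1666 genes with 5 members for medial against lateral. The cause of these shifts was not tested.

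The replicate numbers were not taken as pairs, since the labels do not say what a number marks. Same-numbered libraries of different zones had correlations of -0.0984 to 0.249 in their deviations. Of the 9 libraries, 3 correlated best with their own number in both other zones. These values do not settle whether the libraries were paired. A fit with a replicate block called 0, 2901 and 703 genes and 0, 8 and 3 members in the order above. The member added was Ppard (adjusted p = 0.0263). Under the block, Sgk1 (0.0522) and Crabp2 (0.0572) lost their calls.

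None of the differences of named genes that were refitted changed sign under any alternative. Nr2e1 against the lateral zone and Thra, ventricular against lateral, passed in all of them, and Nr2f1, Nr1h2, Nr1d1, Nr4a2, Pgr and Rara did not. Depth limits members near or below 1.91 FPKM most, which is what 1 fragment on a 2 kb transcript is worth in the shallowest library.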
